A study of Mus musculus with 12 samples.

Results

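Whole corneas of Dscr-1 transgenic (Tg) and wild-type (WT) mice, both taken on day 7 after suturing, were compared on 1 Affymetrix array each. These 2 arrays were chosen by their titles from the 12 of the series, and they are the only ones at day 7. The other 10 arrays are 1 sutured Dscr-1-/- cornea sample (Dscr1KO) and 1 sutured WT sample, both of day 5, and 2 biological replicates each of 4 intact, unsutured groups: Dscr-1-/- and ApoE-/- double null (double KO), Dscr1KO, ApoE-/- (ApoeKO) and WT. All 12 carry the C57BL/6J strain label. The promoter of the Dscr-1 transgene, the cells that express it, its copy number, the number of founder lines, and the sex and age of the mice are not stated by the labels. Nor do these say whether a sample pools several corneas. With 1 array per group, a difference between Tg and WT at day 7 has no replicate check and no test, and it compares these 2 samples. Each difference is set beside the differences between the 2 replicate arrays of the 4 intact groups, which are of unsutured corneas, since no sutured group has a replicate.

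Rcan1, formerly called Dscr1, encodes a protein that binds the calcium-activated phosphatase calcineurin and in most settings inhibits it. Calcineurin removes phosphate from NFAT transcription factors, which then enter the nucleus, and Rcan1 has a second promoter that NFAT itself drives. The cornea is normally clear and without vessels. A suture placed in it brings in leukocytes and makes blood and lymphatic vessels grow in from the limbus, the border with the conjunctiva, and VEGF signalling through calcineurin and NFAT is one of the pathways at work in growing endothelium.

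Promoter sequences are shown for Rcan1, as the gene manipulated, and for Saa1 and Saa2, whose differences between Tg and WT were the highest among the 12711 genes measured above the filter on low intensity. Each is the 250 bases before a transcription start in RefSeq (GRCm38.p6), 5′ to 3′ on the gene's strand. In Rcan1, capitals mark the NFAT core GGAAA on either strand (TTTCC on the other). The table holds 2 Rcan1 starts. The window at chr16:92466170-92466419 (minus strand) holds no match and the window at chr16:92400079-92400328 (minus strand) holds 3. Of 32851 promoter windows of the same length, 55.57% hold at least 1 such match and 6.392% at least 3. In Saa1 at chr7:46742981-46743230 (minus strand) and Saa2 at chr7:46751583-46751832 (plus strand), capitals mark TTGCNNAA (TTNNGCAA on the other strand), a pattern of C/EBP factors, found once in each and in 9.564% of all windows. Each also holds 1 NFAT core match, left in lower case. No match overlaps another. A match is a description of letters and shows no binding.
Rcan1, upstream start: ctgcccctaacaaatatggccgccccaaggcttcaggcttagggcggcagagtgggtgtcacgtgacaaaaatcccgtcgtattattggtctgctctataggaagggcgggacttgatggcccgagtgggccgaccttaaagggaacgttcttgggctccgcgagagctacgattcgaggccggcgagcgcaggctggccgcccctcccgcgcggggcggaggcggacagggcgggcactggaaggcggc
Rcan1, downstream start: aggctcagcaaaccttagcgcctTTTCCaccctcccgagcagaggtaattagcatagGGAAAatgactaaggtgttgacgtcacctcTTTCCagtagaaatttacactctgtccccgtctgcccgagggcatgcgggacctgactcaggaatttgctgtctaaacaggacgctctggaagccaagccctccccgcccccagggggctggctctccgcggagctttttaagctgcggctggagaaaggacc
Saa1: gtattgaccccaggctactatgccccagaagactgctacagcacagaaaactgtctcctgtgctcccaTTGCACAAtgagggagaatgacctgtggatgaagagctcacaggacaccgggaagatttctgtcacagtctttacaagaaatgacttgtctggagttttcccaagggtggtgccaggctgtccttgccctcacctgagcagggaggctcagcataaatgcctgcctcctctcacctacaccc
Saa2: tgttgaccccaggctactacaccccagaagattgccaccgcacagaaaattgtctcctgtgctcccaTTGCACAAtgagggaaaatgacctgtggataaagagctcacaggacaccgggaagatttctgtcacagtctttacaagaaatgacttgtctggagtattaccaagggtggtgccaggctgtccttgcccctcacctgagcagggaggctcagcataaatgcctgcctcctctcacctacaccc

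The targeted gene was read first. The brighter Rcan1 probe set read 548.3 in the Tg-labelled cornea and 579.7 in WT at day 7, a log2 difference of -0.08, against a largest difference between intact replicates of 0.50. On the same probe set, Dscr1KO read 479.1 and WT 663.6 at day 5, while the intact arrays read 379.6 and 331.7 in double KO, 477.5 and 335.9 in Dscr1KO, 668.2 and 581.3 in ApoeKO, and 630.4 and 649.5 in WT. The Tg-labelled array thus lay between the Dscr-1-/- arrays, at 479.1 or less, and the remaining ones, at 579.7 or more, and was not above any array without the deletion. The dimmer Rcan1 probe set read 66.7 in the Tg-labelled cornea and 53.4 in WT at day 7, a difference of 0.30 that was below the largest replicate difference of 0.72. The Tg value was the highest of that probe set on the 12 arrays. At day 5 the dimmer set read 13.1 in Dscr1KO and 40.6 in WT, a difference of -1.40, against -0.47 on the brighter set. Its intact values were 20 and 12.8 in double KO, 13.3 and 10.5 in Dscr1KO, 32.7 and 18.5 in ApoeKO, and 30.4 and 35.2 in WT. Where the probe sets lie relative to the transgene is not stated in the labels, so neither Tg value tests the label. The array is called Tg-labelled, or Tg for short, throughout.

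Genes of the same pathway did not stand apart from all genes. Of 14 measured genes of calcineurin, its regulators and NFAT, 0 differed by at least 2-fold. Over all genes 4.23% did (0.755% higher and 3.48% lower), so counts in lists this short show little. The median difference was -0.08, beside -0.07 over all genes. The largest was that of Nfatc1, the NFAT member expressed in endothelium and heart valves, at 40 in Tg and 67.7 in WT (-0.71, below its largest replicate difference of 0.74), with 1 of its 4 probe sets in the opposite direction. Rcan3, a paralogue of Rcan1, read 67.5 in Tg and 100.3 in WT. Of 17 measured genes known to respond early to NFAT or VEGF, 1 was at least 2-fold lower, Apold1, an endothelial early response gene (-1.07, within its largest replicate difference), and the median was -0.01. Of 17 measured genes within 1 Mb of Rcan1 on chromosome 16, 0 were higher by 2-fold and 1 was lower, the chloride channel gene Clic6, at 8.6 in Tg and 34.2 in WT (-1.63, within its largest replicate difference of 2.01). Itsn1, an endocytic scaffold gene, read 58 in Tg and 115.7 in WT, a difference of -0.95 against 0.57 between replicates.

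Apoe, deleted in other groups of the series, read 905.9 in Tg and 928.8 in WT at day 7. Among the intact arrays it read 32.5 and 22.7 in double KO, 1272 and 316.8 in Dscr1KO, 849.3 and 7.5 in ApoeKO, and 1030.5 and 776.5 in WT. The ApoeKO replicate at 849.3 goes against its label, and the Dscr1KO replicate 2 at 316.8 names ApoE-/- in its source label. Both serve here only to measure replicate differences. Double KO replicate 1 stood apart from replicate 2 in sex-linked genes, with a summed intensity of 4265.5 against 719.6, and in photoreceptor and retina genes, with 9128.1 against 2463.6. The sex-linked sum was also high in intact Dscr1KO (4109.7 and 5393.7) and ApoeKO (4636.8 and 4607). It was low in intact WT (877 and 986.5) and on the sutured arrays (845.7 to 1107.7). Because of the doubtful ApoeKO and Dscr1KO arrays, counts beyond replicates are also given without these pairs, and with the WT pair alone. Between Tg and WT at day 7 the sex-linked genes were close, with a median difference of 0.10 over 4 genes. Corneal epithelial markers were bright in both. Krt12, the cornea-specific keratin, read 6871.5 in Tg and 5631.5 in WT, and the stromal proteoglycan gene Kera read 3018.7 in Tg and 3885.2 in WT. Array medians across the series lay between 15.6 and 21.1 intensity units.

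Over the whole transcriptome, more genes were lower than higher in Tg. Of 12711 genes, 96 were at least 2-fold higher in Tg than in WT (0.755%) and 442 at least 2-fold lower (3.48%). A fold here is taken on log2(intensity + 3.6), so folds of dim genes are understated. When the difference had also to exceed the largest replicate difference of the same gene, 56 were higher (0.441%) and 300 lower (2.36%). At any fold, 1844 genes (14.5%) exceeded their largest replicate difference. A further replicate pair would also exceed the other pairs in part of the genes, so this share alone shows no excess. Without the ApoeKO and Dscr1KO pairs, each of which has a doubtful array, 85 genes were higher and 362 lower beyond replicates, and with the WT pair alone 88 were higher and 431 lower. Between the 2 replicate arrays, 2-fold differences in either direction were found in 1139 genes in double KO (8.96%), 1638 in Dscr1KO (12.9%), 377 in ApoeKO (2.97%) and 214 in WT (1.68%), beside 538 (4.23%) between Tg and WT at day 7. The count at day 7 was above that of the ApoeKO and WT pairs and below that of the Dscr1KO pair, with its doubtful replicate 2, and the double KO pair, whose replicates differed as given above. The SD of the differences over genes was 0.44 between Tg and WT, and 0.67, 0.72, 0.39 and 0.34 for the double KO, Dscr1KO, ApoeKO and WT pairs.

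**Figure D1:**
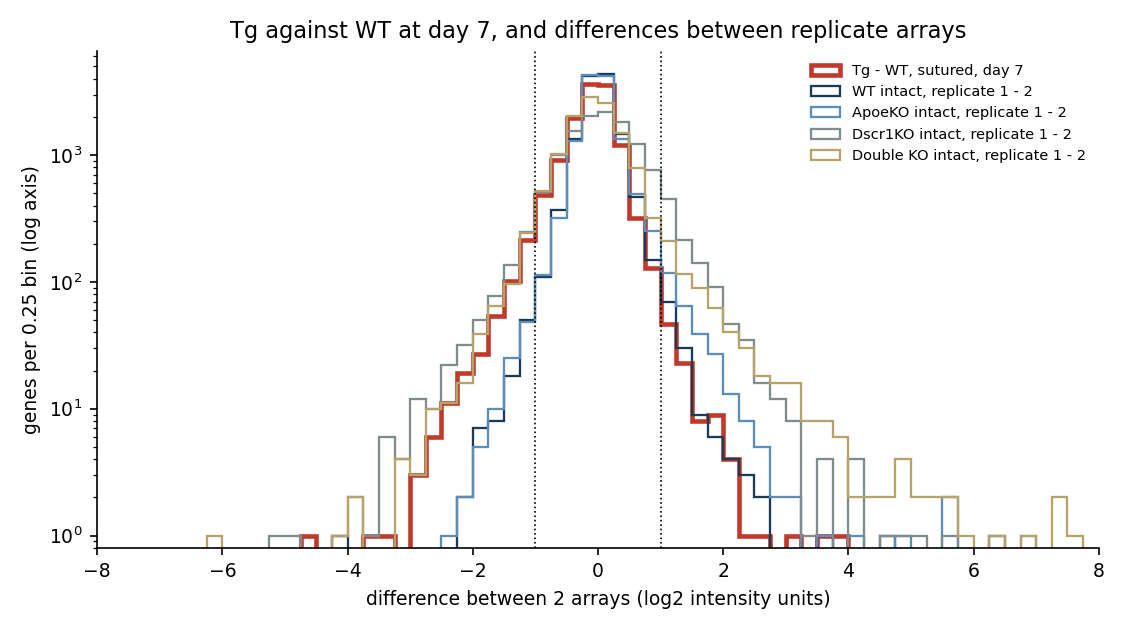
Number of genes (log axis) by the log2 difference between 2 arrays, in bins of 0.25, for Tg minus WT at day 7 (red) and for replicate 1 minus replicate 2 of the 4 intact groups. Dotted lines mark 2-fold; the red curve is uneven, with 442 genes at least 2-fold lower and 96 higher. Its 99th percentile of 0.89 is below those of all 4 pairs (0.99 to 2.24), and its 1st percentile of -1.49 lies between the WT and ApoeKO pairs (-0.87 and -0.86) and the double KO and Dscr1KO pairs (-1.56 and -1.81).

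By gene group, the lists of vessels, vessel wall cells, stroma, matrix, macrophages, lens and pigment cells were centred below 0. Lists of keratinised epithelium, immediate early genes and cholesterol synthesis were centred above 0. For the blood endothelium, lymphatic endothelium, collagen, wound matrix, matrix protease, lens and pigment lists, the size of the median was larger than that of the same list in each of the 4 replicate pairs. For the keratinisation, immediate early and cholesterol synthesis lists, 1 of the 4 pairs had a larger one. The macrophage list was exceeded by 3 pairs. A list's median describes these 2 corneas and is not a test. In bulk tissue, fewer cells of a type and less RNA per cell cannot be told apart.

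**Figure D2:**
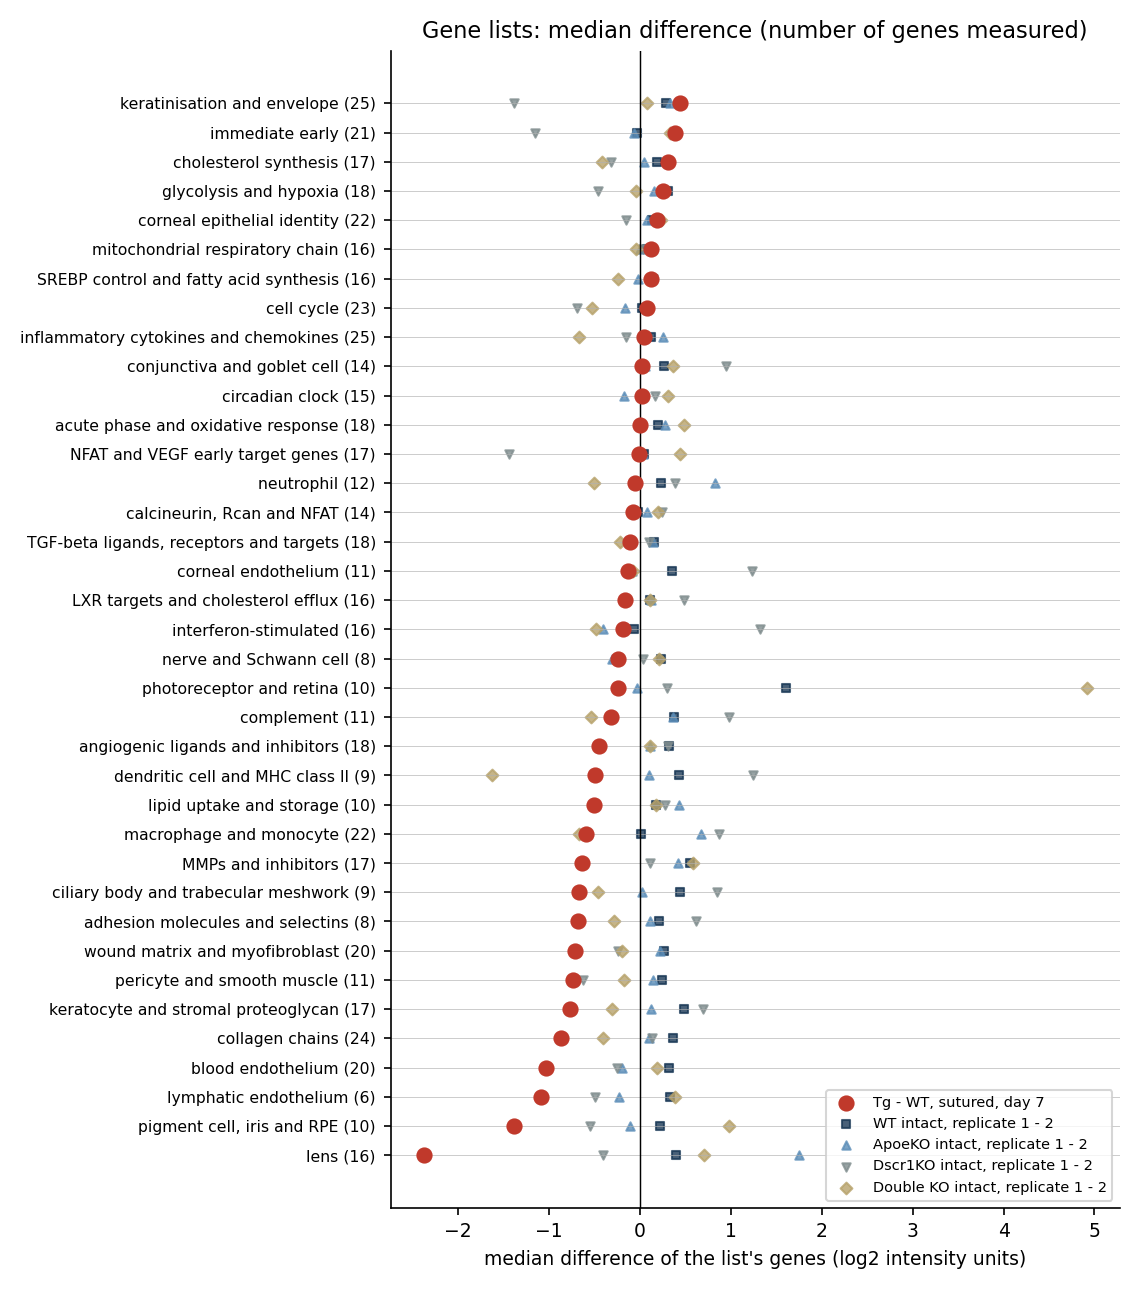
Median log2 difference of each gene list with at least 6 measured genes (number in brackets), for Tg minus WT at day 7 (red circles) and for replicate 1 minus replicate 2 of the 4 intact groups (other symbols). Lens (-2.38), pigment cell (-1.38), lymphatic (-1.09) and blood endothelium (-1.03) lie furthest left, and keratinisation (0.44) furthest right.

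Blood endothelial genes were lower in Tg. Of 20 in the list, 20 were below 0, 10 of them at least 2-fold lower (0 higher) and 8 beyond the largest replicate difference, with a median of -1.03. All 10 exceeded the replicate difference when the ApoeKO and Dscr1KO pairs were not used. Mmrn2, an extracellular matrix protein made by endothelium, read 10.5 in Tg and 50.3 in WT at day 7, beside 100.9 in Dscr1KO and 18.1 in WT at day 5, and 4.9 and 0.5 in intact WT. Its difference of -1.93 compares with 1.05 between replicates.
The von Willebrand factor gene Vwf, a clotting protein stored in endothelial cells, read 10.3 in Tg and 37.9 in WT at day 7 (-1.58, replicates 0.75). Aplnr, the apelin receptor of sprouting endothelium, read 82.6 in Tg and 274.3 in WT at day 7, against 54.6 in WT at day 5 and 7.1 and 1.1 in intact WT (-1.69, replicates 1.55). For Sox17, a transcription factor of arterial endothelium, 10.9 in Tg and 37.2 in WT (-1.49) did not exceed the replicate difference of 1.66. The defining adhesion genes of the cell type lay in the same direction: Cdh5, VE-cadherin, read 25.9 in Tg and 59.6 in WT (-1.10, replicates 1.06), and Pecam1 read 13.8 in Tg and 34.9 in WT (-1.15, replicates 0.94). Kdr, the VEGF receptor named here outside the size rule, read 39.2 in Tg and 81.6 in WT, a difference of -0.99 against 0.34 between replicates. Its level in WT at day 7 lay within the range of the intact arrays (59.9 to 86.5), and the Tg value was the lowest of the 12.

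The summed intensity of the 20 genes put the Tg cornea near the day 5 WT cornea. It was 707.1 in Tg and 1551.4 in WT at day 7, 2084.4 in Dscr1KO and 744.9 in WT at day 5, and 498.9 and 373.6 in intact WT. The other intact arrays differed by genotype, with 2769.4 and 2441.9 in double KO, 2066.8 and 3080.6 in Dscr1KO, and 399.2 and 386.8 in ApoeKO. The sutured WT corneas thus did not hold the highest levels of the series, which were in Dscr-1-/- corneas.

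Lymphatic genes were mostly in the same direction, in a list with few measured members. Of 6, 3 were at least 2-fold lower, with a median of -1.09 that became -1.46 with the filter at the 60th percentile. Mmrn1, a lymphatic-enriched multimerin, read 16.7 in Tg and 59.9 in WT at day 7 (-1.65, replicates 0.74), and Reln, secreted by lymphatic endothelium, read 17.9 in Tg and 75.8 in WT (-1.88, replicates 1.66). Lyve1, a hyaluronan receptor that macrophages also carry, read 46.8 in Tg and 118.6 in WT (-1.28), within its replicate difference of 1.61. Podoplanin (Pdpn), which epithelium also expresses, read 1783.7 in Tg and 1673.4 in WT. Prox1, the master regulator of lymphatic identity, was below the filter, at 3 in Tg and 7.8 in WT.

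Of 11 pericyte and smooth muscle genes, 4 were at least 2-fold lower, with a median of -0.73 that became -1.54 with the filter at the 60th percentile. Of the 4, 2 exceeded replicates, and 4 did without the ApoeKO and Dscr1KO pairs. Tagln, a contractile protein gene, read 48.2 in Tg and 146.5 in WT at day 7 (-1.53, replicates 0.77), and Abcc9, a channel subunit of pericytes, read 20.3 in Tg and 62.9 in WT (-1.48, replicates 1.21). Both were near their day 5 WT values of 43.6 and 20.7. Rgs5, a pericyte marker, read 260.5 in Tg and 824.8 in WT (-1.65, replicates 1.87), and Acta2, the smooth muscle actin that myofibroblasts share, read 275.2 in Tg and 932.4 in WT (-1.75, replicates 1.84). The differences of Rgs5 and Acta2 did not exceed those between replicates.

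Among 18 secreted angiogenic factors and inhibitors, 3 were lower and 0 higher, with a median of -0.45. Col18a1, the collagen from which the inhibitor endostatin is cut, read 30.9 in Tg and 102.5 in WT (-1.62, replicates 0.53). The chemokine gene Cxcl12 read 49.4 in Tg and 121 in WT (-1.23, replicates 0.95). Vegfc, the growth factor of lymphatic vessels, read 40.5 in Tg and 87 in WT (-1.04, replicates 0.48). Vegfa itself, given because it is the main ligand, read 64 in Tg and 86.1 in WT, a difference of -0.41 within its replicate difference. Selp, the P-selectin on which leukocytes roll, read 9.6 in Tg and 45.7 in WT (-1.90, replicates 0.89), and it was the only one of 8 adhesion molecule genes past 2-fold. All 8 were below 0, with a median of -0.68.

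**Figure D3:**
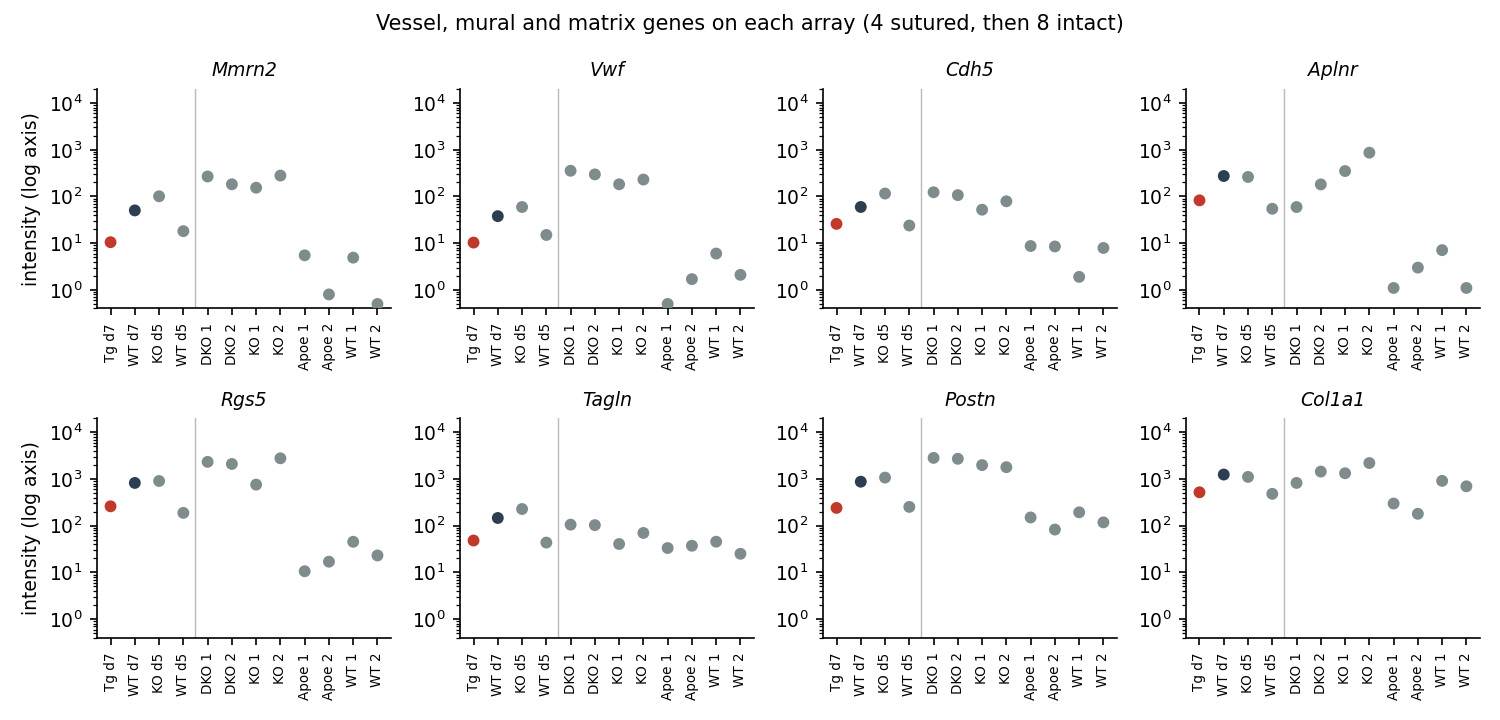
Intensity (log axis) of 8 genes of endothelium, vessel wall and matrix on each array: Tg (red) and WT (dark) at day 7, then Dscr1KO (KO) and WT at day 5 after suturing, and, right of the line, the intact double KO (DKO), Dscr1KO, ApoeKO (Apoe) and WT replicates. Values under 0.5 are drawn at 0.5; in each panel the Tg point lies below the day 7 WT point, at about the height of the day 5 WT point.

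Stromal and matrix genes were lower as well, collagens most broadly. Of 24 collagen chains, 23 were below 0, 10 at least 2-fold lower and 8 beyond replicates, with a median of -0.86. Col14a1, a fibril-associated collagen, read 62.4 in Tg and 231.8 in WT at day 7 (-1.83, replicates 1.58). Col11a1, a fibril-nucleating chain, read 67.8 in Tg and 229.1 in WT (-1.70, replicates 1.15). The cartilage-type collagen gene Col9a1 read 14.5 in Tg and 79.1 in WT (-2.19), within its replicate difference of 2.28.
The main fibrillar chains, named here after their values were seen, were lower too: Col1a1 read 519.8 in Tg and 1247.2 in WT (-1.26, replicates 0.80), Col5a1 read 501.9 in Tg and 1364.5 in WT (-1.44, replicates 0.66), and Col3a1 read 1187.4 in Tg and 3177.8 in WT (-1.42, replicates 2.75). Summed over the 24 chains, intensity was 22688 in Tg and 33089 in WT at day 7, and 34458 in Dscr1KO and 22933 in WT at day 5.

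Of 17 keratocyte and proteoglycan genes, 7 were lower and 0 higher, with a median of -0.76. Aspn, a small proteoglycan that binds collagen and TGF-beta, read 25.8 in Tg and 166.9 in WT at day 7, 222.2 in Dscr1KO and 43.6 in WT at day 5, and 3.9 and 1.8 in intact WT. Its difference of -2.54 exceeded the 1.98 between replicates. Fmod, fibromodulin, read 492.6 in Tg and 1722.5 in WT (-1.80, replicates 1.16). Ptgds, the prostaglandin D synthase of keratocytes, read 112.2 in Tg and 477 in WT (-2.05, replicates 2.35), and the proteoglycan gene Prelp read 157.1 in Tg and 402.6 in WT (-1.34, replicates 2.51). The abundant defining genes differed little, with Kera at -0.36 and Lum at 3811.9 in Tg and 4502 in WT (-0.24).

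The wound matrix list had 4 of 20 genes lower and 0 higher, with a median of -0.71. Postn, periostin, which fibroblasts secrete in repair, read 240.6 in Tg and 876.3 in WT at day 7, against 253.1 in WT at day 5 (-1.85, replicates 0.83). Tnc, tenascin C, read 352.4 in Tg and 867.7 in WT (-1.29, replicates 2.53), and Vcan, versican, read 54.1 in Tg and 141.3 in WT (-1.33, replicates 1.67). The fourth was Acta2. Of 17 matrix metalloproteinases and inhibitors, 3 were lower, 3 beyond replicates, with a median of -0.64. Mmp9, the gelatinase of neutrophils and wound epithelium, read 83.4 in Tg and 281.1 in WT at day 7, and 76.2 in Dscr1KO and 35.2 in WT at day 5 (-1.71, replicates 0.81). Mmp11, a stromal protease, read 5.1 in Tg and 26.8 in WT (-1.80), and Mmp23 read 31.3 in Tg and 100.2 in WT (-1.57).

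In the TGF-beta list, with 2 of 18 lower and a median of -0.11, the genes past 2-fold were a ligand and a matrix binder. Tgfb3 read 37.4 in Tg and 90.1 in WT (-1.19, replicates 0.65), and Ltbp2, a microfibril protein, read 45.3 in Tg and 169.6 in WT (-1.82, replicates 1.84).

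Leukocyte genes were not all lower in Tg. Of 22 macrophage and monocyte genes, 3 were lower and 0 higher, 19 were below 0 and the median was -0.59. Fcer1g, the shared Fc receptor chain, read 104.4 in Tg and 246.6 in WT (-1.21, replicates 1.13). C1qb, a complement subunit that macrophages make, read 112.4 in Tg and 290.6 in WT (-1.34, replicates 1.69). Adgre1, which encodes F4/80, read 61.2 in Tg and 133.8 in WT (-1.08, replicates 1.19). Csf1r, the defining receptor of the lineage, read 427.7 in Tg and 765.5 in WT at day 7 and 127 to 2225 over the intact arrays. The summed list was close, at 12113 in Tg and 12787 in WT.

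The neutrophil list split. Of 12 genes, 3 were higher and 1 lower, with a median of -0.06. The higher ones were S100a9, S100a8 and Lcn2, which inflamed epithelium also makes. S100a9, a subunit of calprotectin, read 3434.5 in Tg and 719.5 in WT at day 7, 390.1 in Dscr1KO and 6191.6 in WT at day 5, and 170.5 and 102.8 in intact WT (2.25, replicates 1.27). S100a8, its partner, read 2493.2 in Tg and 1085.1 in WT (1.20, replicates 1.99). Csf3r, the receptor that defines the lineage, went the other way, at 40.7 in Tg and 78.5 in WT (-0.89, replicates 2.51), and Mmp9, given above, was the lower one. Mpo and Elane, genes of neutrophil granules, were below the filter at 8.5 or less in both corneas.

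Of 9 dendritic cell and MHC class II genes, 0 passed 2-fold, with a median of -0.49, and 8 were below 0. In 2 of the 4 replicate pairs the median of this list was larger in size (up to 1.62). Only 4 of the lymphocyte genes were measured above the filter, with 0 past 2-fold. Of 3 mast cell and eosinophil genes, the mast cell protease gene Cpa3 was higher, at 7.3 in Tg and 0.6 in WT, near background and within its replicate difference. Of 11 complement genes 1 was lower, the receptor gene C3ar1, at 25.1 in Tg and 60.8 in WT (-1.17, replicates 1.91). The complement median of -0.32 was smaller in size than in each of the 4 replicate pairs.

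Among 25 cytokines and chemokines, 2 were higher and 2 lower, with a median of 0.05. Csf3, which encodes the neutrophil growth factor G-CSF, read 21.4 in Tg and 5.7 in WT at day 7 and 69.4 in WT at day 5 (1.43, replicates 1.37). Il1f9, the current Il36g, an epithelial alarm cytokine, read 491.7 in Tg and 177.3 in WT at day 7, and 96.1 in Dscr1KO and 323.2 in WT at day 5 (1.45, replicates 0.57). The lower ones, the macrophage chemokine Ccl3 at 24.4 in Tg and 66.6 in WT (-1.33) and the interferon-induced Cxcl10 at 5.4 in Tg and 16.2 in WT (-1.14), stayed within their replicate differences. Of the central inflammatory genes, Il1b read 272.9 in Tg and 263.1 in WT, and Ccl2 read 76.8 in both.

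Acute phase genes gave the highest differences of the comparison. Of 18 genes, 4 were higher and 0 lower, 3 of them beyond replicates, while the list's median was 0.00. Saa2, a serum amyloid A protein that epithelia and liver make in inflammation, read 191.5 in Tg and 10.7 in WT at day 7, 10.1 in Dscr1KO and 415.5 in WT at day 5, and 3.9 and 2.1 in intact WT. Its difference of 3.77 compares with 1.07 between replicates. Saa1, its near-identical neighbour on chromosome 7, read 406 in Tg and 30.7 in WT at day 7, 11.4 in Dscr1KO and 956.7 in WT at day 5, and 15 and 9.1 in intact WT (3.58, replicates 0.57).
In both genes the Tg cornea and the day 5 WT cornea were high and the other 10 arrays low. The 2 transcripts share much of their sequence, as their promoters printed above do, so their probe sets may read each other and do not count as separate evidence. Saa3, the family member of macrophages and stroma, was bright in both corneas, at 4355.4 in Tg and 2687.5 in WT (0.70, replicates 5.54). Lcn2, an iron-sequestering protein of epithelium and neutrophils, read 789.4 in Tg and 202.9 in WT at day 7, and 179.6 in Dscr1KO and 1116.7 in WT at day 5 (1.94, replicates 1.64). Cp, ceruloplasmin, read 591.3 in Tg and 271.2 in WT (1.11, replicates 2.73).

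Keratinisation and cornified envelope genes were higher on balance. Of 25, 5 were at least 2-fold higher and 0 lower, 19 were above 0 and the median was 0.44, but 0 of the 5 exceeded their largest replicate difference. Without the ApoeKO and Dscr1KO pairs, or with the WT pair alone, 4 of the 5 did. Dmkn, dermokine, a secreted protein of differentiating keratinocytes, read 242.5 in Tg and 67.5 in WT (1.79, replicates 1.97). Sprr2d, an envelope precursor, read 175.5 in Tg and 60.2 in WT at day 7 and 511.5 in WT at day 5, but 0.9 in Dscr1KO. Spink5, a protease inhibitor of the epidermis, read 701.4 in Tg and 326.8 in WT (1.09, replicates 1.38). Krtdap was near background in both, at 5.5 in Tg and 0.5 in WT.
Cnfn, cornifelin, an envelope gene outside that list and next below Saa2 and Saa1 among all measured genes, read 428.7 in Tg and 47.6 in WT at day 7, 31.8 in Dscr1KO and 278.1 in WT at day 5, and 54.2 and 62.5 in intact WT. Its difference of 3.08 exceeded the 2.30 between replicates. Of 22 genes of corneal epithelial identity, 20 were above 0 and 0 passed 2-fold, with a median of 0.19. Corneal endothelial genes, from the cell layer that pumps water out of the stroma, had 0 of 11 past 2-fold and a median of -0.13.

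Immediate early genes, which cells induce within minutes of a stimulus, had 3 of 21 higher and 0 lower, 17 above 0 and a median of 0.38. Fosb read 181.2 in Tg and 47.7 in WT at day 7, 213.4 in Dscr1KO and 217.7 in WT at day 5, and 12 and 8.7 in intact WT (1.85, replicates 1.57). Atf3, a stress-induced factor, read 270.6 in Tg and 73.9 in WT (1.82, replicates 2.48), and Junb read 424.1 in Tg and 195.1 in WT (1.11, replicates 0.68). For these 3 genes the day 7 WT cornea was the lowest of the 4 sutured arrays.

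A goblet cell factor stood alone in its list. Spdef, the transcription factor of mucous cells, read 25.2 in Tg and 1 in WT at day 7 and 7.6 in Dscr1KO and 10.6 in WT at day 5 (2.65, replicates 0.50), near background in WT. It was the only one of 14 conjunctiva and goblet cell genes past 2-fold, and the median was 0.03. Muc5ac, the goblet cell mucin, read 1.2 in both corneas, and the conjunctival keratin gene Krt13 read 2353 in Tg and 2214.8 in WT.

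**Figure D4:**
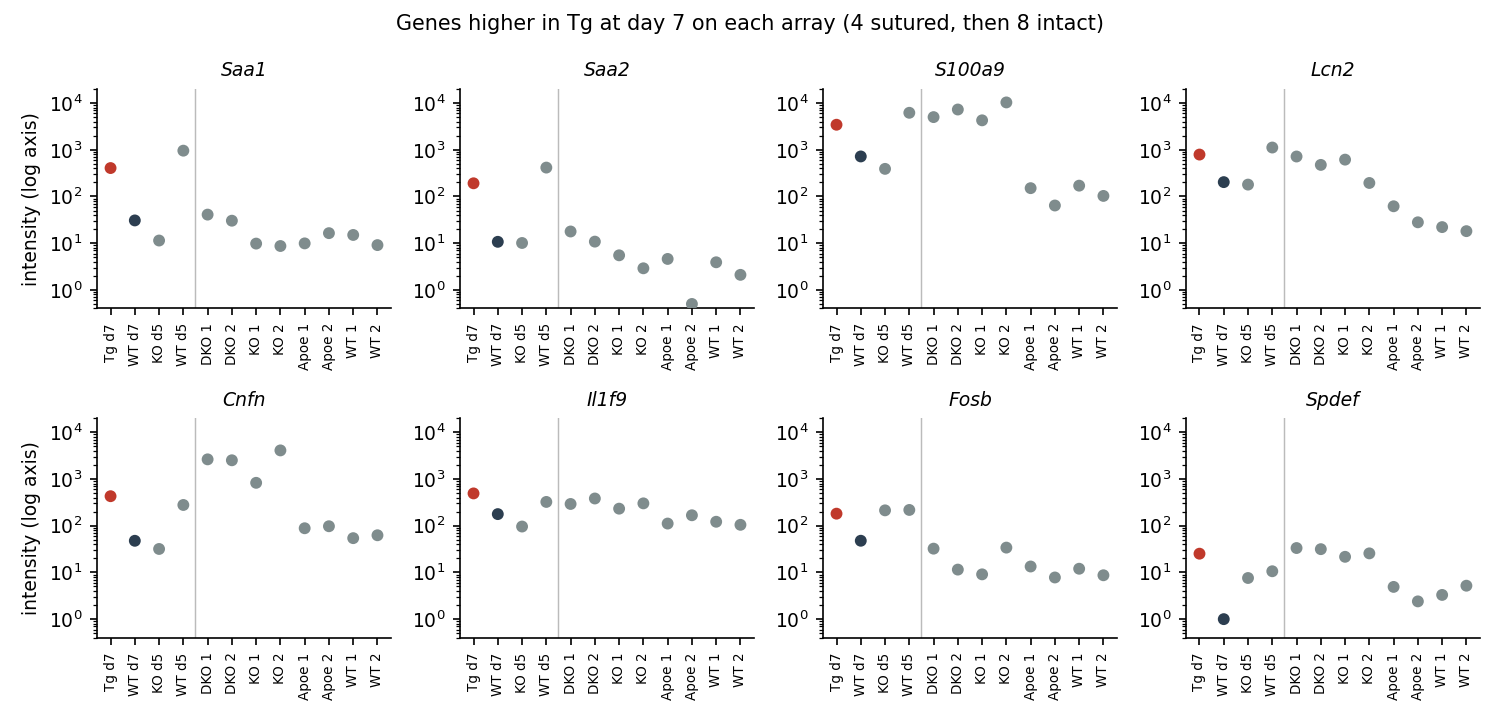
Intensity (log axis) on each array of 8 genes that were higher in Tg (red) than in WT (dark) at day 7, with the other arrays ordered and abbreviated as Dscr1KO (KO), double KO (DKO), ApoeKO (Apoe) and WT. Values under 0.5 are drawn at 0.5; Saa1 reads 406 in Tg and 30.7 in WT at day 7, and for the 4 acute phase and calprotectin genes in the top row the day 5 WT cornea is above Tg.

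The remaining genes with the highest differences, chosen by size among the 28 that exceeded replicates and passed a stricter intensity filter, have mixed functions. Plscr1, an interferon-inducible membrane protein, read 800.6 in Tg and 312.8 in WT (1.35, replicates 0.34), and Slc39a10, a zinc importer, read 853 in Tg and 347.8 in WT (1.29, replicates 0.29). Both exceeded the largest of all intact values, 382.8 and 410.5. Sesn2, a stress-responsive regulator of mTOR, read 38.1 in Tg and 8.8 in WT (1.75). The glycosyltransferase gene B3galt5 read 398.2 in Tg and 137.1 in WT at day 7 but 26.6 in Dscr1KO at day 5 (1.51).
Casp1, the inflammasome protease, read 42.1 in Tg and 13.1 in WT (1.45). Adamdec1, a metalloprotease-like gene of macrophages, read 153.4 in Tg and 55.6 in WT (1.41), against the direction of most macrophage genes. Procr, the protein C receptor, read 342.3 in Tg and 142.1 in WT (1.25), and is found on endothelium and other cells. Tmigd1 (1.38), Adam28 (1.28) and Rasgrp1 (1.19) completed the 15. Adam28 differed by 0.73 when all its probe sets were averaged.

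The lowest differences belonged largely to tissues inside the eye. Of the 15 lowest genes chosen by the same rule, 8 are lens genes and 1 more a pigment cell gene. Of 16 lens genes, 14 were at least 2-fold lower and 0 higher, with a median of -2.38. Cryaa, the lens chaperone crystallin, read 91.4 in Tg and 1130.4 in WT at day 7, 21.2 in Dscr1KO and 94 in WT at day 5, and 802.4 and 573.7 in intact WT (-3.58, replicates 1.98). Crygf read 12 in Tg and 158.7 in WT (-3.38), Cryba1 read 219.6 in Tg and 1596.8 in WT (-2.84), and the lens water channel gene Mip read 6.2 in Tg and 58.4 in WT (-2.66).
Crystallin levels thus were high in the day 7 and intact WT corneas and lower in Tg and both day 5 corneas. The summed lens list was 2161.7 in Tg and 9978.3 in WT at day 7, 1489.5 in Dscr1KO and 1682.9 in WT at day 5, and 16054 and 11558 in intact WT, with 562.8 as the lowest intact array. Of 10 pigment cell, iris and retinal pigment epithelium genes, 7 were lower and 0 higher, with a median of -1.38. Tyr, tyrosinase, read 0.8 in Tg and 21.8 in WT (-2.53, replicates 0.57), Dct read 70.9 in Tg and 336.8 in WT (-2.19, replicates 1.30), and Tyrp1 read 48.6 in Tg and 206.8 in WT (-2.01, replicates 1.24). The summed pigment list was 256.8 in Tg and 874.4 in WT at day 7, 2646.6 in Dscr1KO and 652 in WT at day 5, and 345 to 1013.4 over the intact arrays, so that Tg was the lowest of the 12.

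The lens and pigment lists differed in the same direction as the vessel and matrix lists at day 7, and their part in those differences was not tested. Without the lens and pigment genes, 421 genes remained at least 2-fold lower in Tg, 283 of them beyond replicates. Of 10 retinal genes 0 passed 2-fold, beside 4.23% of all genes, and their median was -0.24. Of 9 ciliary body and trabecular meshwork genes, 1 was lower, the cadherin gene Cdh11, at 440 in Tg and 897.8 in WT (-1.02, replicates 0.68), with a median of -0.67. Of 8 nerve and Schwann cell genes 1 was lower, the glial gene S100b (-1.06), with a median of -0.24. Muscle and fat were near background, with 4 and 2 genes measured and 0 past 2-fold, and no red blood cell gene passed the filter.

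Lipid genes, which the series addresses in other groups, had 2 members past 2-fold at day 7. Of 17 cholesterol synthesis genes, 15 were above 0 and 0 past 2-fold, with a median of 0.31. Pmvk, phosphomevalonate kinase, had the largest difference, at 368.2 in Tg and 207.3 in WT (0.82, replicates 0.20), followed by the isomerase gene Idi1 at 1402 in Tg and 896.7 in WT (0.64, replicates 0.95). Of 16 genes of SREBP control and fatty acid synthesis 0 passed 2-fold, and Scd1, a desaturase, read 725.6 in Tg and 424.1 in WT (0.77, replicates 0.23).
Of 16 cholesterol efflux genes 1 was higher, the oxysterol hydroxylase gene Cyp7b1, at 95.4 in Tg and 45.1 in WT (1.02, replicates 0.55). Lipid uptake and storage genes had a median of -0.50, larger in size than in each of the 4 replicate pairs, with 8 of 10 below 0. Among them 1 was at least 2-fold lower, the lipoprotein lipase gene Lpl, at 31.4 in Tg and 131.1 in WT at day 7, and 478 in Dscr1KO and 48.3 in WT at day 5 (-1.94, replicates 3.17).

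Growth and housekeeping groups had few genes past 2-fold. Of 23 cell cycle genes 0 passed 2-fold, with a median of 0.08, and the proliferation marker Mki67 read 583 in Tg and 454.4 in WT. Of 15 circadian clock genes 0 passed 2-fold (median 0.02), and of 16 respiratory chain genes 0 did (median 0.12). Of the respiratory chain genes 15 were above 0, and their small median was still larger in size than in each replicate pair (0.08 at most). Of 18 glycolysis and hypoxia genes 1 was higher, Bnip3, a hypoxia-inducible mitophagy receptor, at 556.7 in Tg and 248.3 in WT (1.15, replicates 1.06). Interferon-stimulated genes had 1 of 16 lower, the antiviral Rsad2, at 42.8 in Tg and 122 in WT (-1.44, replicates 2.30), with a median of -0.18.

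To ask whether the response to suturing as a whole was smaller or larger in Tg, genes were selected without either day 7 array. The 637 genes at least 2-fold higher in the day 5 WT cornea than in both intact WT corneas were read at day 7. Relative to intact WT their median was 1.5 in Tg and 1.60 in WT at day 7, and 1.93 in Dscr1KO and 1.72 in WT at day 5. The day 5 WT value is large by the selection itself, so it cannot be compared with those of the other sutured arrays. The median Tg minus WT difference was -0.12, with quartiles of -0.57 and 0.39, beside a median of -0.07 over all genes. Within the 637 genes, 51 were higher in Tg (8.01%) and 62 lower (9.73%), beside 0.755% and 3.48% over all genes. Among the lower ones were Aspn, Mmrn2 and Selp, and among the higher ones Saa1, Saa2, S100a9 and Lcn2, all given above.
The 317 genes at least 2-fold lower in the day 5 WT cornea had a median relative to intact WT of -0.99 in Tg and -0.65 in WT at day 7, and -0.76 in Dscr1KO and -1.37 in WT at day 5. Here too the day 5 WT value is fixed by the selection. Of the 317 genes, 1 was higher (0.315%) and 33 lower (10.41%) in Tg than in WT, beside 0.755% and 3.48% over all genes. Their median Tg minus WT difference was -0.31, beside -0.07 over all genes. Without the lens genes, 302 were left, with 20 lower (6.62%) and a median of -0.30.

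Loss of Dscr-1 was measured in the sutured corneas of day 5, as Dscr1KO against WT, and this comparison shares no array with that of day 7. The days differ, so the values are set side by side. At day 5, 524 genes were at least 2-fold higher in Dscr1KO (4.12%) and 247 lower (1.94%). Across the 12711 genes, the correlation of both sets of differences was -0.44 by Pearson's r and -0.43 by Spearman's rho, as a description over genes, which are not independent replicates. Each difference has its own pair of single corneas, and any difference between these corneas besides genotype enters it.

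In counts, 150 of the 12711 genes were lower in Tg and higher in Dscr1KO. They are 33.9% of the 442 lower in Tg and 28.6% of the 524 higher in Dscr1KO. Over all genes, 4.12% were higher in Dscr1KO and 3.48% lower in Tg. Another 39 of the 12711 were higher in Tg and lower in Dscr1KO. They are 40.6% of the 96 higher in Tg and 15.8% of the 247 lower in Dscr1KO. Over all genes, 1.94% were lower in Dscr1KO and 0.755% higher in Tg. In the same direction, 6 genes were higher in both (6.25% of the Tg list, 1.15% of the Dscr1KO list) and 15 lower in both (3.39% and 6.07%). By list, the 150 genes of 12711 that were lower in Tg and higher in Dscr1KO were unevenly spread. They held 10 of the 20 blood endothelial genes, 7 of the 24 collagens, 4 of the 11 pericyte and smooth muscle genes and 6 of the 10 pigment genes. They also held 3 of the 22 macrophage genes and 1 of the 16 lens genes, but 0 of the 9 dendritic cell and 0 of the 8 adhesion molecule genes. The 39 of 12711 in the other direction held 4 of the 25 keratinisation genes, 3 of the 18 acute phase genes and 3 of the 12 neutrophil genes, with Lcn2 in both of the last lists. Over whole lists, blood endothelium had a median of -1.03 for Tg minus WT at day 7 and 1.55 for Dscr1KO minus WT at day 5. Collagens had -0.86 for Tg and 0.79 for Dscr1KO, and macrophage genes -0.59 for Tg and 1.06 for Dscr1KO.
Keratinisation had 0.44 for Tg and -0.89 for Dscr1KO, and cholesterol synthesis 0.31 for Tg and -0.81 for Dscr1KO, with 0 of its genes in either overlap. The pigment list also had opposite signs, with -1.38 for Tg and 1.58 for Dscr1KO. The lens list did not, with -2.38 for Tg and -0.63 for Dscr1KO. Without the lens and pigment genes, r was -0.46. In the intact corneas, the Dscr-1-/- samples were above WT in the keratinisation and neutrophil lists. Summed keratinisation intensity was 79936 and 77723 in double KO and 45636 and 99981 in Dscr1KO, against 15578 and 12377 in WT. For the neutrophil list it was 12428 and 17369 in double KO and 9908.3 and 20576 in Dscr1KO, against 261.7 and 187.1 in WT. The lower values of these lists in Dscr1KO were thus seen in the day 5 pair only. Summed sex-linked intensity also differed among the intact arrays, with 4265.5 and 719.6 in double KO, 4109.7 and 5393.7 in Dscr1KO, and 877 and 986.5 in WT. Its part in the intact differences was not tested.

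**Figure D5:**
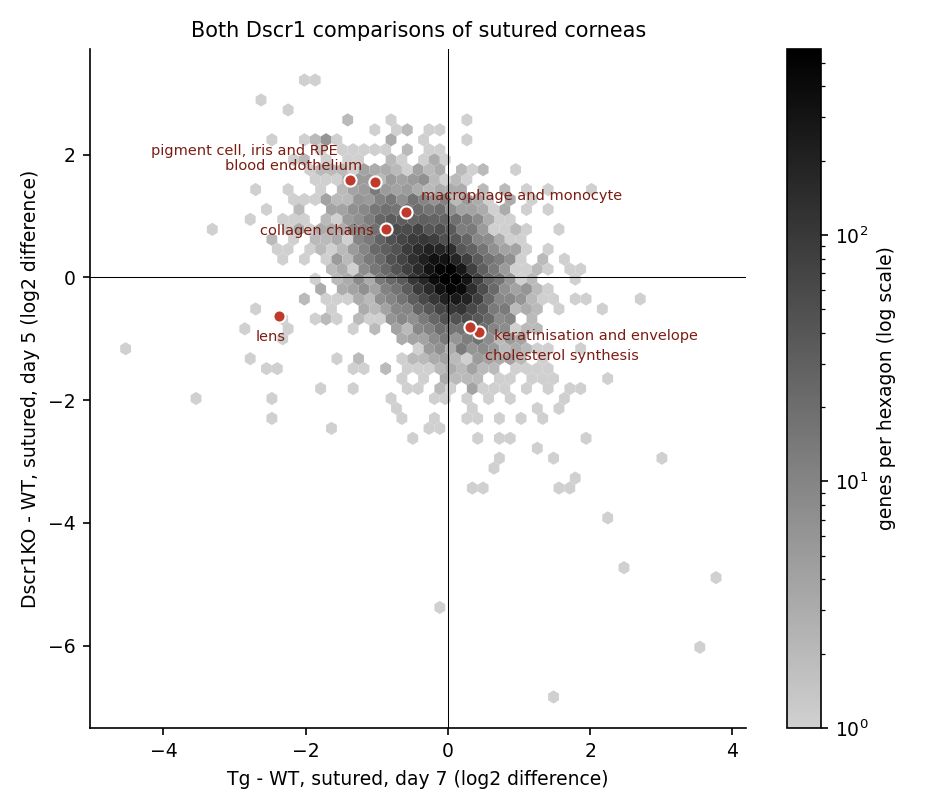
Log2 difference of 12711 genes for Tg minus WT at day 7 (horizontal) and Dscr1KO minus WT at day 5 (vertical), as hexagons shaded by the number of genes (log scale), with the medians of 7 gene lists in red. The cloud runs from upper left to lower right (r of -0.44); blood endothelium lies at -1.03 and 1.55, and lens alone of the 7 lies at lower left.

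The WT cornea itself differed between the days. Between day 7 and day 5, 416 genes were at least 2-fold higher in WT at day 7 (3.27%) and 254 lower (2.0%). That comparison shares its day 7 array with the comparison of Tg and WT, so each gene high in that 1 array counts in both. Its list medians were 1.07 for blood endothelium, 3.20 for lens and -1.16 for immediate early genes. The Tg cornea against the day 5 WT cornea gave 166 genes higher (1.31%) and 348 lower (2.74%), and against the day 5 Dscr1KO cornea 320 higher (2.52%) and 994 lower (7.82%). The SD over genes was 0.44 for Tg against WT at day 7, 0.45 for Tg against WT at day 5, 0.63 for Tg against Dscr1KO at day 5, and 0.51 between the 2 WT corneas. Genotype at day 7 cannot be told apart from any other difference between these 2 samples.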

How the data were processed

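Whole mouse corneas were profiled on 12 Affymetrix arrays, from 100 ng of total RNA each per the labels' protocols. The deposited values are linear probe-set intensities, brought to 1 scale by the authors before they deposited them: every array has a 2% trimmed mean of 100. Their software was not given in the sources used here. Of 45101 probe sets, 34958 carry 1 gene symbol in the platform annotation and were used, with the brightest standing for each of 18194 genes. Another 932 carry several symbols and 9211 none. To each value 3.6 was added, their 20th percentile, before taking log2. Genes whose mean reached the 40th percentile over the probe sets numbered 12711 and were kept.

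Samples were grouped by their labels. The Tg minus WT difference was computed per gene without a test, and set beside the largest difference between the replicates of any of the 4 intact groups. The number of arrays limits the precision. The 2 arrays and the gene lists (44, with 699 of 754 entries matched) were chosen with earlier results of these data known. Genes named by size are the 15 highest and 15 lowest that differed by 2-fold, exceeded that replicate difference and lay at or above the 60th percentile; each list names up to 4 members past 2-fold, or up to 2 where none passed, plus defining markers, and exceptions are marked or are central genes of a pathway. Of the 30 named by size, 7 have several probe sets kept, of which 0 differ in the opposite direction. Alternatives were the filter, the normalization, the added constant, the rule on probe sets, and the replicate pairs used. The computation was checked by adding known log2 shifts to a simulated copy of an intact WT array with noise from the WT pair. This checks the calculation only and not the differences between corneas. Work was done in python 3.11.15 with numpy 2.4.6 and pandas 2.3.3, and figures with matplotlib 3.10.9. Promoter sequences are from RefSeq (GRCm38.p6).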

Additional observations from a re-analysis of the deposited data

How the results depend on the processing

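The filter on low intensity moved the counts most. At the 60th percentile, 50 genes were at least 2-fold higher and 200 lower in Tg, 28 and 143 beyond replicates, and r with the Dscr1KO comparison was -0.53. With no filter these became 426 and 900, 255 and 571, and -0.27, since the added genes are dim ones. With every probe set taken by itself, 198 were higher, 122 beyond replicates. Using the WT pair alone as the replicate difference left 88 higher and 431 lower genes beyond it, and leaving out the ApoeKO and Dscr1KO pairs left 85 and 362; the same counts for lists were added after the data were seen. Leaving out each intact array in turn, added after the data were seen, gave 57 to 76 higher and 303 to 347 lower genes beyond replicates, and medians of -0.192 to -0.11 for the suture-raised set and -0.3132 to -0.2979 for the suture-lowered set. More genes were lower than higher under quantile normalization (366 lower, 118 higher) and median centring (349 lower, 123 higher), as in every other setting run. Of 210 values of the 30 genes named by size, 0 changed sign, and 4 were under 2-fold. Of 283 list medians, 18 changed sign, those of the calcineurin and NFAT lists among them. The lymphatic and pericyte medians became -1.46 and -1.54 at the 60th percentile, and that of the respiratory chain 0.04 under quantile normalization and 0.22 under median centring. No paired analysis was possible because the day 7 groups have 1 array each and the comparison has no test. Dim genes near the added constant of 3.6 have no reliable fold. No outlier could be sought in groups of 1 or 2 arrays.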

Other observations

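Several genes with low differences belong to none of the lists. Wfdc18, a secreted protease inhibitor-like gene, read 12.7 in Tg and 98.9 in WT at day 7, and 298.9 in Dscr1KO and 36.3 in WT at day 5 (-2.65, replicates 1.31). Penk, the precursor of the enkephalin opioid peptides, read 40.4 in Tg and 237.4 in WT at day 7, and 397.6 in Dscr1KO and 260.8 in WT at day 5 (-2.45, replicates 1.93). Card14, a keratinocyte activator of NF-kB, read 3.5 in Tg and 30.3 in WT (-2.26, replicates 0.45), the lowest of the 12 arrays, whose intact values ran from 23.7 to 87. The protocadherin gene Pcdh19 read 11.9 in Tg and 62.2 in WT (-2.09). Sntb1, a syntrophin, read 8.9 in Tg and 48.6 in WT (-2.06), but the mean of its probe sets differed by only -0.46.

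Csn3, a milk casein gene chosen after its values were seen, was in the suture-raised set and read 32.1 in Tg and 259.3 in WT at day 7, against 26.7 in WT at day 5 and 6.9 and 9.6 in intact WT. By chromosome, the share of genes at least 2-fold lower in Tg ran from 1.97% on chromosome 19 to 4.83% on chromosome 18, and on chromosome 16, which carries Rcan1, it was 4.37% of 412 genes.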
